A study of Mus musculus with 16 samples.

Results

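The genes described here are 10 protein-coding genes on mouse chromosome 9, the chromosome that carries *Pkm*. They are *Snap91*, *Sh3bgrl2*, *Cyb5r4*, *Jaml*, *Hmgn3*, *Tle3*, *Myo6*, *Layn*, *Tmod3* and *Cep162*. The 10 were chosen by their names from the 55492 genes of the deposited table, because their levels differed between genotypes over all 16 libraries. Their genotype differences are therefore what selected them and are given as a description. Counts of genotype calls stand only beside those of all genes, and nothing is read from them. The rule names no cutoff, so there are no values just inside or outside it to compare. All 10 had a mean of at least 10 normalized counts and were among the 20576 genes tested.

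The libraries come from left ventricles of male C57BL/6 mice aged 8 to 12 weeks. PKM2fl/fl mice, which carry loxP sites around the *Pkm2*-specific exon, were the controls. PKM2-/- mice lacked that exon in every tissue, since a Cre driven by the CMV promoter had removed it and the Cre allele had then been bred out. Each genotype gave 2 hearts at baseline, 3 hearts taken 3 days after sham surgery and 3 hearts taken 3 days after myocardial infarction (MI), which was produced by permanent ligation of the left anterior descending artery. The deletion and anything else that differs between the mouse lines, including linked DNA on chromosome 9, cannot be told apart in this design.

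*Pkm* encodes the muscle isoforms of pyruvate kinase, the enzyme of the last step of glycolysis, and its transcripts carry either the exon of PKM1 or that of PKM2. Genes on a chromosome are inherited together more often the closer they lie, so that a bred allele brings neighbouring DNA with it. The 10 genes have no shared pathway. *Snap91* (AP180, a clathrin assembly protein best known at nerve terminals) and *Myo6* (a myosin that moves toward the minus end of actin filaments) act in endocytosis and transport. *Tmod3* caps the pointed ends of actin filaments. *Jaml* (an adhesion molecule of leukocytes) and *Layn* (layilin, a hyaluronan-binding lectin) are cell surface receptors. *Hmgn3* (a nucleosome-binding protein) and *Tle3* (a Groucho-type corepressor) act in the nucleus. *Cyb5r4* joins a cytochrome b5 domain to a reductase domain, *Sh3bgrl2* encodes a small protein of the thioredoxin-like fold, and *Cep162* encodes a protein of centrioles and the ciliary base.

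Library sizes ranged from 20623769 to 71855101 reads. Reads on loci related to ribosomal RNA took 15.8% to 46.0% of a library, and 4 libraries exceeded 43%. The 4 were PKM2fl/fl MI replicates 1 and 3, PKM2-/- baseline replicate 1 and PKM2-/- sham replicate 3. At baseline the share was 17.2% and 22.1% in PKM2fl/fl and 43.8% and 39.6% in PKM2-/- hearts. After sham it was 22.9%, 15.8% and 27.8% in PKM2fl/fl and 28.5%, 29.4% and 46.0% in PKM2-/- hearts. In either treatment every PKM2-/- heart lay above every PKM2fl/fl heart, whereas after MI the genotypes overlapped. The part of this share in the genotype differences was not tested. The 6 listed cardiomyocyte markers were present in every library. Their summed level was 886770.2 to 1184603 normalized counts at baseline and after sham, and 189028 to 451682 after MI. A normalized count is the number of reads of a gene divided by the size factor of its library. In whole tissue, fewer cells of a type and less RNA per cell cannot be told apart.

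The 10 genes lie on both sides of *Pkm*, with 2 at lower and 8 at higher coordinates, over 42.2 Mb of GRCm38.p6 in the RefSeq annotation. *Pkm* itself runs from 59656576 to 59679372. The nearest of the 10, *Tle3*, starts 1.72 Mb beyond the start of *Pkm*, at 61372326, and ends at 61418497. At lower coordinates, *Jaml* runs from 45079153 to 45108531 and *Layn* from 51055023 to 51077209, which puts their starts 14.6 Mb and 8.60 Mb from that of *Pkm*. At higher coordinates, *Tmod3* runs from 75497784 to 75559657 and *Myo6* from 80164976 to 80311729. The other 5 fall within a stretch of 4.15 Mb, from 83109942 to 87255536, whose start is 23.5 Mb from the start of *Pkm*. In order they are *Hmgn3* (83109942 to 83147358), *Sh3bgrl2* (83548338 to 83600292), *Snap91* (86765923 to 86880734), *Cyb5r4* (87022008 to 87077774) and *Cep162* (87189573 to 87255536). The last 3 are consecutive among the tested genes and together take up 0.490 Mb. The annotation places *Snap91*, *Layn* and *Cep162* on the reverse strand and *Jaml*, *Tle3*, *Myo6*, *Sh3bgrl2* and *Cyb5r4* on the forward strand.

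The bases before the first exon of 4 genes of this stretch are shown because these genes had higher levels in PKM2-/- hearts and lie close together. They are RefSeq sequences of GRCm38.p6 at chr9:83548088-83548337 on the forward strand, chr9:86880735-86880958 on the reverse strand, chr9:87021779-87022007 on the forward strand and chr9:87255537-87255782 on the reverse strand. Capitals mark the letters of the GC box, which is GGGCGG and reads CCGCCC on the other strand, and of the CCAAT box, which reads ATTGG on the other strand. The matches of *Cyb5r4* lie side by side and print as a single run.
Sh3bgrl2: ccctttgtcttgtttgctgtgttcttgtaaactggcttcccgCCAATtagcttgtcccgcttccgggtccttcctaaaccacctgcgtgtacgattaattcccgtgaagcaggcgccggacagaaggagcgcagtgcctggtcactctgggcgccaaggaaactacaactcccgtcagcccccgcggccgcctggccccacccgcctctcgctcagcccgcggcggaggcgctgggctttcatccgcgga
Snap91: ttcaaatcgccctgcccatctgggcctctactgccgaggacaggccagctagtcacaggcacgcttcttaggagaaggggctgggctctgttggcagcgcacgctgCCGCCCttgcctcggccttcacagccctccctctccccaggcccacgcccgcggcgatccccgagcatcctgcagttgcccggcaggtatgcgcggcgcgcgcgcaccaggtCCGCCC
Cyb5r4: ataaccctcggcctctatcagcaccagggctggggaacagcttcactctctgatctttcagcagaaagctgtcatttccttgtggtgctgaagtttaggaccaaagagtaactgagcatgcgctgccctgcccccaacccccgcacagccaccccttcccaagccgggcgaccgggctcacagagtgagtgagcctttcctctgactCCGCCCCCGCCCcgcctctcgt
Cep162: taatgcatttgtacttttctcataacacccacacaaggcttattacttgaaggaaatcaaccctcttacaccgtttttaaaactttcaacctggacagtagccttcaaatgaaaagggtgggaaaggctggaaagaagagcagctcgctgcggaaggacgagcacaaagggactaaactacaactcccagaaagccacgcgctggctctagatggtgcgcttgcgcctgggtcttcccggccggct
The promoter table held 8 of the 10 genes, *Hmgn3* and *Tmod3* being the exceptions. Each window was 250 bases before a start site, of which 0 (*Sh3bgrl2*) to 115 (*Layn*) lay inside the annotated gene. Those inside bases are not printed above but enter the GC contents and CG counts. Of these 8 windows, 4 held GGGCGG on either strand (*Snap91*, *Cyb5r4*, *Myo6* and *Layn*), against 32.9% of 27025 promoters. CCAAT was found in 4 (*Sh3bgrl2*, *Jaml*, *Tle3* and *Myo6*), against 34.5%. TATAAA was found only in the *Jaml* window (13.0% of all promoters) and CACGTG only in that of *Tle3* (6.05%). The *Cep162* window held none of the 4. The *Jaml* window had 1 CG dinucleotide and a GC content of 40.8%, whereas the other 7 had 10 to 26 CG dinucleotides and a GC content of 49.2% to 71.2%. The medians over all promoters were 6 CG dinucleotides and 52.0%.

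Of the 10 genes, 9 had a higher and 1, *Myo6*, a lower mean level in PKM2-/- hearts when the 3 treatments were averaged. All values below are log2 differences, PKM2-/- minus PKM2fl/fl, on the scale of the log2 of the normalized count plus 1. They ran from 2.00 for *Snap91* (SE 0.27) and 1.04 for *Jaml* (SE 0.22) down to 0.27 for *Tle3* (SE 0.05) and 0.18 for *Tmod3* (SE 0.05). *Myo6* stood at -0.29 (SE 0.06). The median over the 10, which were chosen for this difference, was 0.36, against -0.01 over all tested genes. By limma, 2 of the 10 were called higher (*Snap91* and *Sh3bgrl2*), with 0.0437% of all tested genes called higher, and 0 were called lower, with 0.0583% called lower. By DESeq2, 10 of the 10 were called, with 1.57% of the tested genes called in either direction. 

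*Snap91* had the widest gap between genotypes. In PKM2fl/fl hearts it was at 39.2 and 23.2 normalized counts at baseline, at 25.3, 31.8 and 32.4 after sham, and at 173, 67.5 and 48.5 after MI. In PKM2-/- hearts it was at 181 and 279 at baseline, at 137, 208 and 223 after sham, and at 236, 94.0 and 82.2 after MI. All PKM2-/- hearts lay above all PKM2fl/fl hearts at baseline and after sham, with ratios of means of 7.35 and 6.35, whereas after MI the genotypes overlapped, with a ratio of 1.43. The listed markers of neurons and glia, the cells in which AP180 is best known, summed to 188 to 258 normalized counts at baseline and after sham in either genotype and to 368 to 551 after MI, when 1 of the 4 tested markers was called higher and 2 lower. None of the 4 tested markers of that list was called between genotypes. *Snap25* and *Rbfox3*, the other two of the list, fell under the filter on low values.

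*Sh3bgrl2* lies in the same stretch. In PKM2fl/fl hearts it was at 109.9 and 127 normalized counts at baseline, at 177, 155 and 101 after sham, and at 325, 228 and 325 after MI. In PKM2-/- hearts it was at 217 and 224 at baseline, at 217, 394 and 264 after sham, and at 395, 377 and 450.1 after MI. The genotypes did not overlap in any of the 3 treatments, and the ratios of means were 1.86, 2.02 and 1.39 at baseline, after sham and after MI.

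*Hmgn3*, *Cyb5r4* and *Cep162* showed smaller gaps of the same direction. *Hmgn3* was at 79.3 to 103 normalized counts in the 5 PKM2fl/fl hearts without MI and at 129 to 178 in the 5 PKM2-/- hearts without MI. After MI it was at 172, 178 and 218 in PKM2fl/fl and at 236, 227 and 221 in PKM2-/- hearts. *Cyb5r4* was at 545 to 595 in PKM2fl/fl and at 617 to 849 in PKM2-/- hearts without MI. After MI it was at 779, 641 and 657 in PKM2fl/fl and at 966, 833 and 864 in PKM2-/- hearts, and its ratio of means was 1.28, 1.27 and 1.28 in the 3 treatments. *Cep162* was at 219 to 256 in PKM2fl/fl and at 279 to 401 in PKM2-/- hearts without MI. After MI it was at 374, 329 and 328 in PKM2fl/fl and at 375, 393 and 378 in PKM2-/- hearts. Its MI groups came closest to overlapping.

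The genotypes did not overlap within any treatment for 5 of the 10 genes, all of them higher in PKM2-/- hearts (*Sh3bgrl2*, *Cyb5r4*, *Hmgn3*, *Tmod3* and *Cep162*). This held for 0.258% of all tested genes in that direction and for 0.248% in the other. Over all 16 libraries at once, 0 of the 10 and 0.00972% of tested genes were separated. The count of 5 became 9, all but *Tle3*, without the 4 libraries with over 43% of reads on loci related to ribosomal RNA, and 0 when libraries were scaled by their total reads. On that scale the median log2 genotype difference of all genes was -0.19, and *Tmod3* had a difference of -0.0059, and the other 9 kept their direction. The share of all tested genes without overlap is not given for either alternative. Leaving out libraries makes separation easier for any gene, so nothing is read from the count of 9. The count of 0, with all 16 libraries kept, shows that the absence of overlap depended on how the libraries were scaled.

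**Figure D1:**
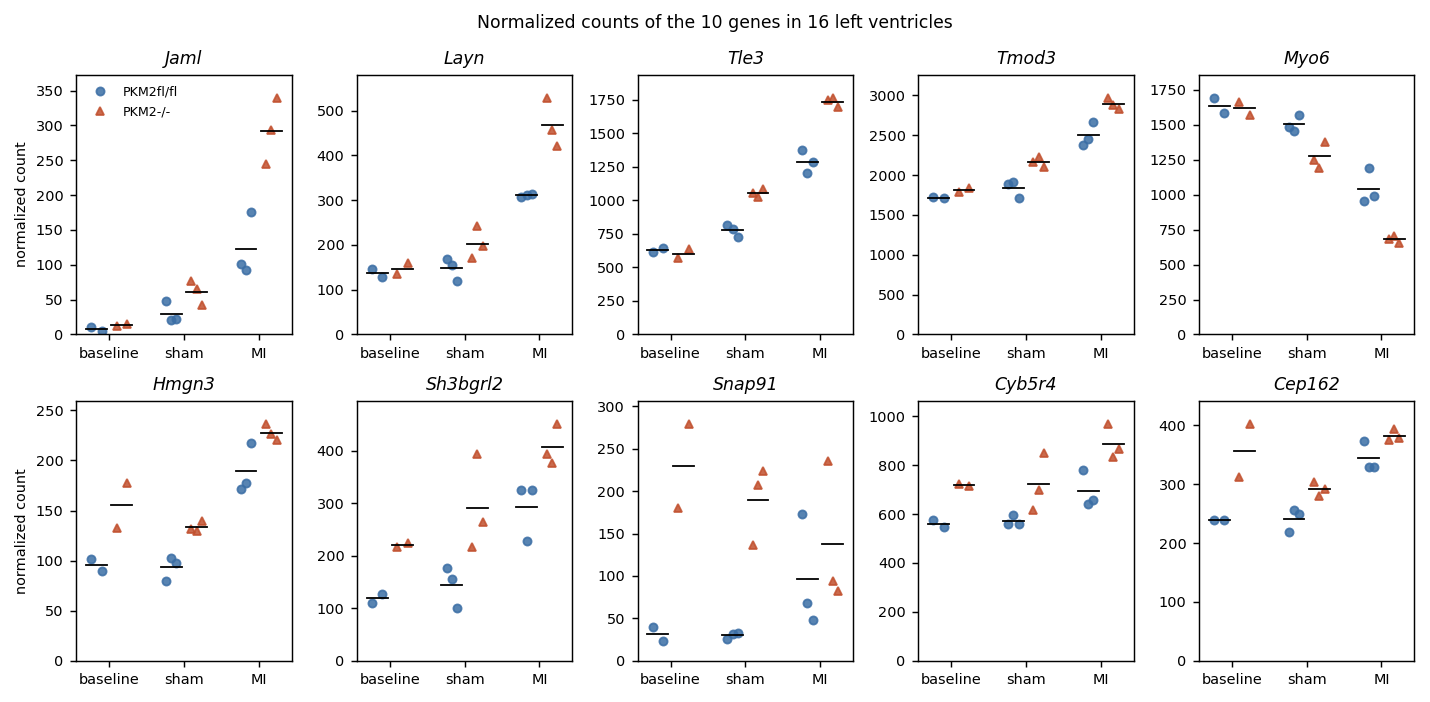
Normalized counts (linear vertical axes from 0) of the 10 genes in each of the 16 hearts at baseline, after sham and after MI, in order along chromosome 9; circles are PKM2fl/fl, triangles PKM2-/- hearts, black bars the group means. *Snap91* in PKM2-/- hearts lies at 137 to 279 before MI, against 23.2 to 39.2 in PKM2fl/fl hearts, and *Jaml*, *Layn*, *Tle3* and *Tmod3* step up from baseline to MI.

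The remaining 5 genes lie outside that stretch. *Tle3* was at 611 and 646 normalized counts in PKM2fl/fl and at 568 and 634 in PKM2-/- hearts at baseline, which overlap. After sham it was at 815, 787 and 728 in PKM2fl/fl and at 1053, 1026 and 1081 in PKM2-/- hearts, and after MI at 1377, 1201 and 1283 and at 1749, 1761 and 1697. The PKM2-/- hearts lay above the PKM2fl/fl hearts after either operation.

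*Myo6* had the reverse direction. It was at 1689.9 and 1582 in PKM2fl/fl and at 1665 and 1570.5 in PKM2-/- hearts at baseline. After sham it was at 1483, 1454 and 1568 in PKM2fl/fl and at 1251, 1192 and 1379.7 in PKM2-/- hearts, and after MI at 955, 1188 and 988 and at 684, 702 and 652. The genotypes overlapped at baseline, and the PKM2-/- hearts were the lower ones after sham and after MI. The summed cardiomyocyte markers were 198191 to 451682 in PKM2fl/fl and 189028 to 242416 in PKM2-/- hearts after MI, and their part in this result was not tested.

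*Jaml* was the lowest of the 10, with as few as 8 reads in a baseline library. It was at 10.2 and 5.31 normalized counts in PKM2fl/fl and at 11.7 and 14.7 in PKM2-/- hearts at baseline, at 47.6, 20.5 and 22.1 against 77.2, 65.3 and 42.1 after sham, and at 100.5, 92.2 and 176 against 245, 293 and 339 after MI. The genotypes overlapped after sham only. *Layn* was at 147 and 127 in PKM2fl/fl and at 134 and 159 in PKM2-/- hearts at baseline, at 168, 156 and 119 against 170.4, 242 and 197 after sham, and at 308, 312 and 313 against 528, 457 and 419.8 after MI. It overlapped at baseline only. *Tmod3* was at 1724 and 1708 against 1789 and 1842 at baseline, at 1894, 1909 and 1719 against 2159, 2225 and 2108 after sham, and at 2384, 2449.7 and 2671 against 2966, 2886 and 2836 after MI, with ratios of means between 1.06 and 1.18.

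**Figure D2:**
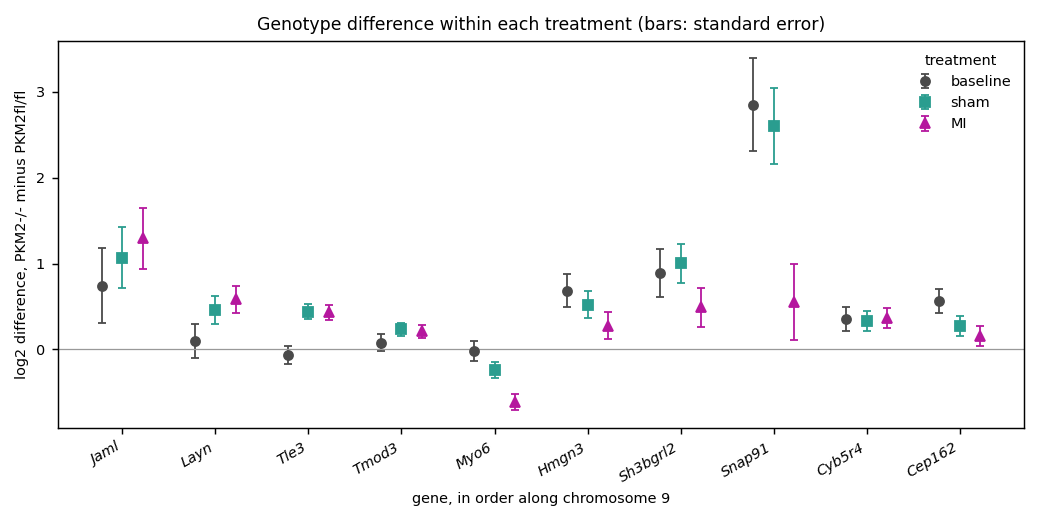
Log2 difference, PKM2-/- minus PKM2fl/fl, of each gene at baseline (circles, 2 hearts a group), after sham (squares) and after MI (triangles, 3 hearts a group each); bars are standard errors from the limma fit, and genes are in order along chromosome 9. *Snap91* falls from 2.85 at baseline and 2.60 after sham to 0.56 after MI, and *Myo6* goes from -0.02 to -0.61.

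*Pkm*, whose exon 10 was deleted, had 7779 to 9602 normalized counts in PKM2fl/fl and 11710.1 to 14242 in PKM2-/- hearts without MI. After MI the genotypes overlapped, at 12076, 9576 and 10560.4 against 16113, 11549 and 10120.2. The gene count includes transcripts of either isoform and does not check the deletion of the exon.

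Of the 979 tested genes of chromosome 9, limma called 2 by genotype, both among the 10. DESeq2 called 26, of which 16 were not among the 10. In steps of 10 Mb from the start of *Pkm*, the step from 20 to 30 Mb toward higher coordinates held 49 tested genes, 6 of the 10 among them. An unadjusted p under 0.05 was reached by 34.7% of its genes, against 3.03% to 21.2% in the other 12 steps and 11.4% of all tested genes. The shares on the other 19 chromosomes ran from 9.21% to 15.5%, with 12.6% on chromosome 9 as a whole. Those chromosomes were not cut into steps, so their shares are not a background for a single step. The 6 genes are among the 17 under 0.05 in their step and were chosen for this difference, so nothing is read from its share. On chromosome 12 limma called 6 genes, and 1.56% of its tested genes did not overlap within any treatment, against 2 and 1.02% on chromosome 9. Within 2 Mb of *Pkm*, 0 of the 33 other tested genes were called by limma, 5 had an unadjusted p under 0.05, and their largest absolute log2 difference was 0.43.

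The stretch from *Hmgn3* to *Cep162*, whose bounds were set after the values were seen, held 20 tested genes. The 5 of the chosen set there had log2 differences of 0.33 to 2.00. They were chosen for such differences, so nothing is read from their contrast with the other 15. The other 15 split into 7 higher and 8 lower in PKM2-/- hearts, between -0.68 and 0.27, and none of them was called by limma, while 3 had an unadjusted p under 0.05. These 3, named after their values were seen, were all lower in PKM2-/- hearts: *Tpbg* (-0.68, SE 0.18), the lncRNA *A330041J22Rik* (-0.44, SE 0.16), which is the tested gene next to *Snap91*, and the lncRNA *Gm46124* (-0.41, SE 0.12). 

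The nearest tested gene on each side of each of the 10 was also read. There were 16 such neighbours outside the chosen set. None was called by limma, and their median absolute log2 genotype difference was 0.09, against 0.36 for the 10 and 0.11 for all tested genes. The 10 were chosen for this difference, so nothing is read from their larger median. The highest of the neighbours was 1.75 (SE 0.36) for *Gm39383*, 65.7 kb from *Hmgn3*. *Tmod2*, a tropomodulin 5.96 kb from *Tmod3*, stood at 0.42 (SE 0.12), and *Senp6*, 20.2 kb from *Myo6*, at 0.11 (SE 0.05). *Uaca* and *Rplp1*, on either side of *Tle3*, stood at 0.00 (SE 0.08) and -0.05 (SE 0.08). Overlapping annotated genes were *Gm39384* at *Sh3bgrl2*, *Gm2065* at *Hmgn3*, *Gm27227* at *Myo6*, *Gm10684* at *Jaml* and *Gm32681* at *Layn*. The strand setting of the counting is not given in the sources used here, so reads of overlapping genes on opposite strands cannot be told apart. *Gm10684* had a mean of 45.6 normalized counts beside the low level of *Jaml*.

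**Figure D3:**
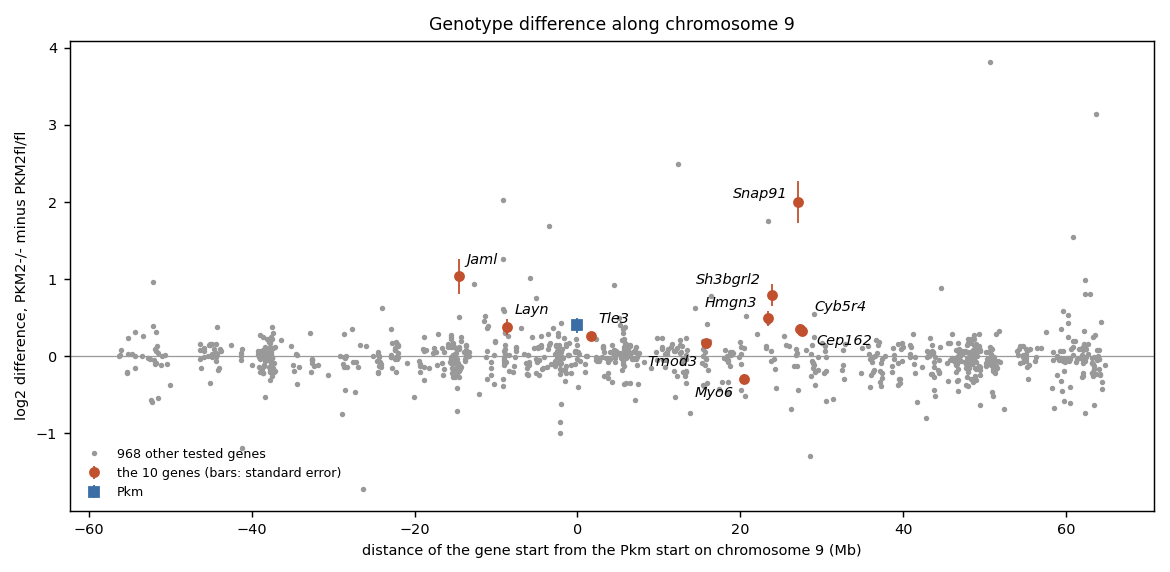
Log2 difference, PKM2-/- minus PKM2fl/fl averaged over 3 treatments, of the 979 tested genes of chromosome 9 against the distance of their start from that of *Pkm* in Mb: orange circles are the 10 genes with standard errors, the blue square is *Pkm*, gray dots are the other 968. Of those 968, 59 have an absolute difference over 0.5, against 3 of the 10, and 4 lie above *Snap91*.

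MI against sham was not the comparison that chose the genes, but the MI hearts were among the 16 libraries behind the choice. A gene with little spread between hearts also passes either comparison more easily. The MI calls are therefore not independent of the choice. In this comparison 9 of the 10 passed by limma. Over both genotypes, limma called 8 higher after MI than after sham (*Jaml*, *Layn*, *Hmgn3*, *Sh3bgrl2*, *Tle3*, *Cep162*, *Tmod3* and *Cyb5r4*), with 32.9% of tested genes called higher. It called 1 lower (*Myo6*), with 32.7% of tested genes called lower. *Snap91* did not pass the test. The median log2 difference of the 10 was 0.59, against 0.01 over all tested genes. Both genotypes had the same direction for each gene other than *Snap91*.

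The surface receptors rose most. *Jaml* rose 4.44-fold (log2 difference 2.15, SE 0.25, limma adjusted p = 2.25e-06), and every MI heart lay above every sham heart of its genotype. The listed leukocyte markers summed to 3429 to 7665 normalized counts after sham and to 15894 to 29690.1 after MI, with 4 of the 5 tested markers called higher, and their part in the rise of *Jaml* was not tested. *Layn* rose 2.21-fold (1.15, SE 0.11, adjusted p = 3.85e-07 by limma). Fibroblast markers, of which 4 of 5 were called higher after MI, summed to 20865 to 38524 after sham and to 115187 to 154445 after MI, and their part in the rise of *Layn* was not tested.

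Among the relatives of *Jaml*, the proteins of the JAM and CAR families, 1 of 5 was called higher and 2 lower after MI. *Cxadr*, the receptor to which JAML binds, fell by 0.89 on the log2 scale (SE 0.07, limma adjusted p = 5.04e-08). *Cxadr* was also the only one of the 66 tested relatives called by genotype, at -0.37 (SE 0.06, limma adjusted p = 0.0474). Of all tested genes, 0.0583% were called lower by genotype. The alternative fits are not given for *Cxadr*, so how far this call depends on the processing is not known. Among the other hyaluronan receptors listed beside *Layn*, 3 of 5 were called higher and 2 lower over both genotypes, and 2 of 5 higher in PKM2-/- hearts alone. The member that differs is *Cd44*, a hyaluronan receptor of many cell types, at 3.09 (SE 0.86) in PKM2fl/fl and -0.06 (SE 0.86) in PKM2-/- hearts. The loci related to ribosomal RNA had group means of 7268878 normalized counts after sham and 14532285 after MI in PKM2fl/fl hearts, and of 14942478 and 7985222 in PKM2-/- hearts, and their part in the *Cd44* values was not tested. *Stab1*, a scavenger receptor of macrophages and sinusoidal endothelium, stood at 1.52 (SE 0.10), and *Lyve1*, a marker of lymphatic endothelium, at -0.57 (SE 0.13).

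In the nucleus, *Hmgn3* rose 1.85-fold (log2 difference 0.89, SE 0.11, limma adjusted p = 3.81e-06). Its relatives *Hmgn1* and *Hmgn2* were called higher as well, at 0.76 (SE 0.08) and 0.48 (SE 0.08), and *Hmgn5* lower, at -0.39 (SE 0.12). *Tle3* rose 1.65-fold (0.72, SE 0.06, limma adjusted p = 5.92e-08), with the MI hearts above the sham hearts in either genotype. None of the 5 other tested TLE corepressors was called higher, and 3 were called lower, *Tle5* by 1.27 and *Tle2* by 1.02 on the log2 scale. *Tle1* and *Tle4* were at 0.10 (SE 0.11) and 0.15 (SE 0.10).

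The cytoskeletal genes moved apart. *Tmod3* rose 1.35-fold (0.43, SE 0.05, limma adjusted p = 4.59e-06). All 6 of its relatives were called lower, from *Tmod2* at -0.44 (SE 0.13) to *Tmod4*, a tropomodulin of striated muscle, at -2.56 (SE 0.21). *Tmod1* and *Lmod2*, which cap and elongate the thin filaments of cardiomyocytes, were at -1.28 (SE 0.15) and -1.47 (SE 0.19). The cardiomyocyte markers fell in 6 of 6, with a median of -1.85, and their part in these values was not tested. *Myo6* fell 1.64-fold (-0.72, SE 0.07, limma adjusted p = 2.05e-07), every MI heart being below every sham heart of its genotype. Of the 12 unconventional myosins and myosin VI adaptors, 5 were called higher and 6 lower: *Dab2*, a clathrin adaptor that binds myosin VI, was at 1.73 (SE 0.12), *Myo5a* at 1.57 (SE 0.09), and *Optn*, an autophagy adaptor, at -1.67 (SE 0.19).

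*Sh3bgrl2* rose 1.71-fold after MI (0.78, SE 0.16, limma adjusted p = 0.000548). Of the 3 genes of its family, *Sh3bgrl3* and *Sh3bgrl* were called higher, at 2.16 (SE 0.11) and 1.30 (SE 0.13), and *Sh3bgr*, the member abundant in heart muscle, lower, at -0.87 (SE 0.14). *Cep162* rose 1.36-fold (0.45, SE 0.08, limma adjusted p = 0.000171), and 3 of 7 other genes of the centriole and transition zone were called higher and 2 lower. *Cyb5r4* had the smallest change that passed, 1.22-fold (0.29, SE 0.08, limma adjusted p = 0.00561). Scaled by total reads it was at 0.46 and did not pass (limma adjusted p = 0.0587), and scaled by reads outside the loci related to ribosomal RNA it was at 0.53 and passed. Among 6 other cytochrome b5 genes, *Cyb5r3* was called higher, at 0.78 (SE 0.09), and *Cyb5r2* and *Cyb5rl* lower. Taking all 66 tested relatives, 25 were called higher and 27 lower, with a median of 0.04.

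**Figure D4:**
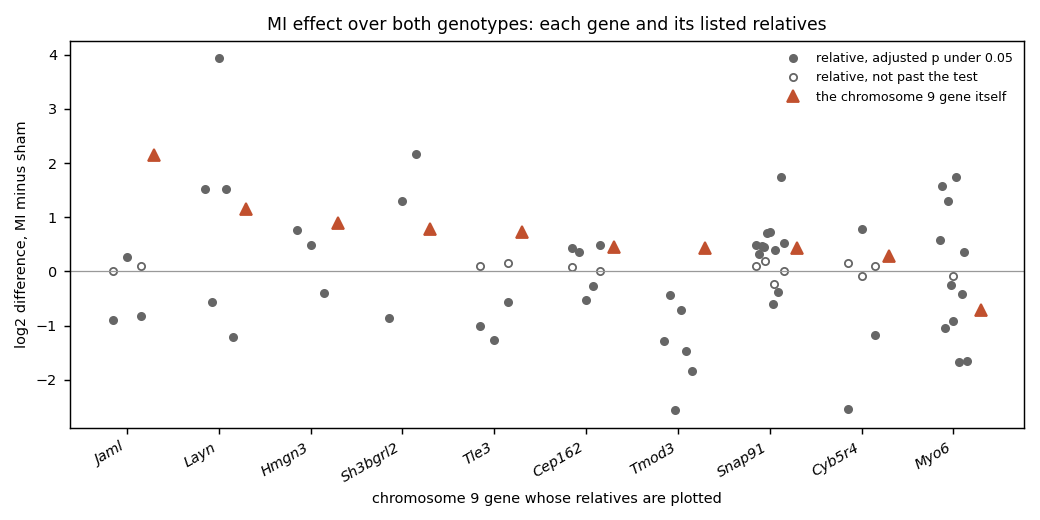
Log2 difference, MI minus sham over both genotypes, of each of the 10 genes (triangles) and of its listed relatives (filled circles: limma adjusted p under 0.05; open circles: not past it). *Tmod3* at 0.43 and *Tle3* at 0.72 lie above all of their relatives, the tropomodulins and leiomodins and the other TLE genes.

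In PKM2fl/fl hearts, 8 of the 10 were called higher after MI, with 24.8% of tested genes called higher, and 1 lower, with 25.3% called lower. In PKM2-/- hearts, 7 were called higher, with 28.7%, and 1 lower, with 28.1%. Scaling by total reads gave 2368 higher and 3633 lower calls over all genes in PKM2fl/fl hearts, with a median log2 difference of -0.18, and 7217 and 1891 in PKM2-/- hearts, with a median of 0.52. *Cyb5r4* was at 0.31 (SE 0.12, limma adjusted p = 0.0336) in PKM2-/- and at 0.27 (SE 0.12, limma adjusted p = 0.0616) in PKM2fl/fl hearts. In PKM2-/- hearts its call was lost without PKM2-/- sham replicate 1 or 2 or PKM2-/- MI replicate 1 or 3 (limma adjusted p = 0.0571 to 0.170), with no filter on low values, with only the groups compared in the fit and by edgeR without a filter. In PKM2fl/fl hearts it passed without PKM2fl/fl MI replicate 2 or PKM2-/- sham replicate 1 or 3, and when libraries were scaled by their reads outside the loci related to ribosomal RNA (0.40, limma adjusted p = 0.0149). *Sh3bgrl2* was at 1.03 (SE 0.23, limma adjusted p = 0.00147) in PKM2fl/fl and at 0.52 (SE 0.23, limma adjusted p = 0.0637) in PKM2-/- hearts. In PKM2-/- hearts it passed when libraries were scaled by total reads (1.03, limma adjusted p = 0.00706) or by reads outside those loci (0.87, limma adjusted p = 0.00272), by edgeR without a filter, and without PKM2-/- sham replicate 2 (0.76, limma adjusted p = 0.0104) or PKM2fl/fl sham replicate 3 (0.52, limma adjusted p = 0.0378). Without the libraries with over 43% of reads on loci related to ribosomal RNA, which leaves 1 PKM2fl/fl MI heart, the difference of *Sh3bgrl2* in PKM2fl/fl hearts was 0.70.

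*Snap91* was the only one of the 10 whose direction differed. It was called higher after MI in PKM2fl/fl hearts, at 1.45 (SE 0.44, limma adjusted p = 0.0124), and was at -0.59 (SE 0.44, limma adjusted p = 0.267) in PKM2-/- hearts. All 3 PKM2fl/fl MI hearts lay above all 3 sham hearts, and in PKM2-/- hearts the groups overlapped. The rise rests in part on PKM2fl/fl MI replicate 1, at 173, without which the difference was 0.93 (limma adjusted p = 0.0730). Without the 4 libraries with over 43% of reads on loci related to ribosomal RNA, which leaves 1 PKM2fl/fl MI heart that is assumed to vary like the other groups, the difference was 1.16. PKM2-/- MI replicate 1, at 236, likewise stood apart, and without it the difference in PKM2-/- hearts was -1.07 (limma adjusted p = 0.0487). The PKM2fl/fl replicate had 43.7% of its reads on loci related to ribosomal RNA, and the PKM2-/- replicate was not among the 4 libraries over 43%. Those loci had group means of 6145467, 7268878 and 14532285 normalized counts in PKM2fl/fl hearts at baseline, after sham and after MI. In PKM2-/- hearts the means were 19521581, 14942478 and 7985222. Like the group means of *Snap91*, these means were higher after MI than after sham in PKM2fl/fl and lower in PKM2-/- hearts. Within either MI group, the hearts ranked differently by *Snap91* and by the share of reads on those loci. The part of those loci in the *Snap91* values was not tested.

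The difference in the MI effect between genotypes was tested by an interaction term. It passed for 0 of the 10 and for 0% of tested genes by limma, with 1703 genes at an unadjusted p under 0.05, for 0 genes by edgeR with a filter, for 538 by edgeR without a filter, *Snap91* among them, and for 60 by DESeq2. The largest among the 10 was that of *Snap91*, -2.05 (SE 0.62, limma adjusted p = 0.438, unadjusted p = 0.00499), followed in size by *Sh3bgrl2* at -0.51 (SE 0.32). *Myo6* was at -0.37 (SE 0.13, limma adjusted p = 0.514, unadjusted p = 0.0137). Without PKM2fl/fl MI replicate 3 the *Snap91* term was -2.43 and passed (limma adjusted p = 0.0478), and with any other single library left out it did not pass. When libraries were scaled by total reads the median term of all genes was 0.67, and on that scale the terms of *Sh3bgrl2*, *Hmgn3*, *Myo6*, *Tmod3*, *Cep162* and *Tle3* changed sign while that of *Snap91* was -1.37. *Tle3*, *Tmod3* and *Cyb5r4* had terms of -0.01 (SE 0.12), -0.02 (SE 0.11) and 0.03 (SE 0.16). Of the other genes of clathrin-coated endocytosis, 9 of 15 were called higher in PKM2fl/fl and 9 in PKM2-/- hearts, among them *Cltc* (the clathrin heavy chain) at 0.65 (SE 0.12) and 0.77 (SE 0.12).

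**Figure D5:**
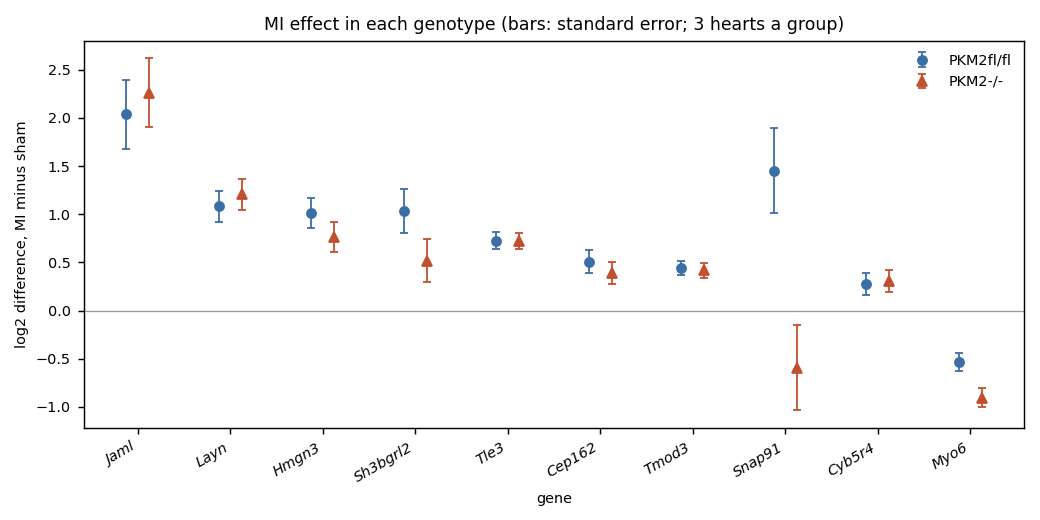
Log2 difference, MI minus sham, of each gene in PKM2fl/fl (circles) and PKM2-/- hearts (triangles), 3 hearts a group, with standard errors from the limma fit; genes are ordered by their mean MI effect. The 2 symbols have the same sign for all genes but *Snap91*, which is at 1.45 and -0.59.

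Sham surgery by itself changed fewer of them. Against baseline, over both genotypes, *Jaml* and *Tle3* were called higher, 2 of the 10 with 4.52% of tested genes called higher, and 0 were called lower, with 2.02% called lower. *Jaml* rose 3.85-fold (1.94, SE 0.28, limma adjusted p = 0.00114) and *Tle3* 1.47-fold (0.56, SE 0.07, limma adjusted p = 0.000283). *Myo6* was at -0.23 (SE 0.07, limma adjusted p = 0.0782) and *Tmod3* at 0.18 (SE 0.06, limma adjusted p = 0.104). The other 6 lay between -0.15 and 0.30. DESeq2 called *Myo6* and *Tmod3* as well. The leukocyte markers also rose with sham surgery, 5 of 5 tested, from a summed 2343 to 3263 at baseline to 3429 to 7665 after sham. Fibroblast markers were called higher in 3 of 5, with a median of 0.59, and atrial markers in 2 of 3 tested, with a median of 2.52. The part of these markers in the rises of *Jaml* and *Tle3* was not tested. The difference in the sham effect between genotypes, a comparison added after the values were seen, passed for 0 of the 10 and 0% of tested genes by limma (1294 at an unadjusted p under 0.05), for 0 genes by edgeR with a filter, for 285 without a filter, and for 24 genes by DESeq2. *Tle3* had a term of 0.51 (SE 0.13, unadjusted p = 0.00166, limma adjusted p = 0.462).

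Ordered by group mean, 8 of the 10 genes were highest in PKM2-/- MI hearts. *Snap91* was highest in PKM2-/- baseline hearts (229.6 ± 69.2, SD, n = 2) and lowest in PKM2fl/fl sham hearts (29.8 ± 3.95, SD, n = 3). *Myo6* was highest in PKM2fl/fl baseline hearts (1636 ± 76.6, SD, n = 2) and lowest in PKM2-/- MI hearts (679.6 ± 25.5, SD, n = 3). Of the 50 neighbouring pairs in these orders, 23 had overlapping libraries. No share of all tested genes is given for the orders or the overlaps. The 10 were chosen for genotype differences, so nothing is read from these counts. For *Tle3* the order was PKM2-/- baseline, PKM2fl/fl baseline, PKM2fl/fl sham, PKM2-/- sham, PKM2fl/fl MI and PKM2-/- MI, and only the 2 baseline groups overlapped. For *Jaml* the order was the same but for the baseline groups, with PKM2fl/fl the lower, and only the sham groups overlapped. For *Cyb5r4* only the step from PKM2fl/fl sham to PKM2fl/fl MI was free of overlap, and for *Snap91* only the step from PKM2fl/fl baseline to PKM2fl/fl MI.

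The genes whose 6 group means were most like those of each of the 10 were found by the root mean square difference of the centred log2 means. *Tmod3* had the closest, *Slc25a37* (a mitochondrial iron transporter) at 0.03. *Cyb5r4* was closest to *Igfbp5* at 0.04, *Tle3* to *Gm45717* at 0.04 and *Ifitm2* at 0.06, *Cep162* to *Gm50338* at 0.06, *Myo6* to *Cdc14b* at 0.06 and *Trpc1*, itself on chromosome 9, at 0.07. *Hmgn3* was closest to *Cetn4* at 0.07 and *Layn* to *Pgm2* at 0.07. *Sh3bgrl2* was closest to *Cib2*, also on chromosome 9, at 0.15, and *Jaml* to *Ms4a4a* at 0.19. No gene came near *Snap91*, for which the smallest distance was 0.51 (*Kpna1*) beside a spread of 1.14 of its own. Among the 10 nearest genes of each, 0 to 2 were on chromosome 9, which holds 979 of the 20576 tested genes. Some of the nearest, such as *Gm45717* and *Gm50338*, had no position. Nothing is read from these counts.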

How the data were processed

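RNA of 16 left ventricles was depleted of ribosomal RNA and sequenced as paired ends on an Illumina NextSeq. Trimming by the authors used PRINSEQ, alignment to mm10 used HISAT2 and counting per gene used featureCounts, with versions not given in the sources used here. The deposited signal values were normalized counts, which the authors made as reads over the DESeq2 size factor of the library. The deposited table also held the authors' comparison of the baseline groups (a mean signal, a log2 fold change with its error, a Wald score, a p-value and an adjusted p-value), which was not used.

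Multiplying back gave whole reads for 100% of values within 0.05, and these reads served the edgeR and DESeq2 alternatives. The test, for genes averaging 10 normalized counts or more, was limma 3.58.1 in R 4.3.3 on log2 values after adding 1, in a single fit of 6 group means, with Benjamini-Hochberg adjustment over 20576 genes and a threshold of 0.05. The alternatives used edgeR 4.0.16 and DESeq2 1.42.0, other scalings, filters and pseudocounts, a replicate block and libraries left out. The procedure was tested on simulated data. Positions and promoters came from RefSeq GRCm38.p6, the build of the files, and 70.6% of genes had a position. The limma p-values set a difference against the spread of hearts within groups. That spread was estimated over the 6 groups together and drawn toward a trend over genes.

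The 10 genes, the lists of relatives and the cell type markers were chosen with earlier results of these data known. Genes named are the 10, *Pkm*, the nearest tested neighbours, listed relatives, and those of most similar group means. The loci related to ribosomal RNA were 4 of 7 listed that the table holds.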

Additional observations from a re-analysis of the deposited data

How the results depend on the processing

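Of the 10 genes, limma called 2 by genotype. This became 1 under a required 2-fold change, total count scaling, edgeR with a filter, a pseudocount of 10 or at least 10 reads in every library, 0 with no filter on low values, 7 by edgeR without a filter, 10 by DESeq2 and 8 without the 4 libraries with over 43% of reads on loci related to ribosomal RNA, an alternative chosen after seeing the data. Leaving out single libraries gave 0 to 9, with 9 without PKM2fl/fl MI replicate 3, which also gave 36 calls on chromosome 9. Counts of all genes are not given here for single libraries left out or for a 2-fold change. Nothing about the 10 genes is therefore read from these changes. With a pseudocount of 10, 16 of all genes were called by genotype. Of the chromosome 9 genes, 2 were called, against 13 under total count scaling, 1 by edgeR with a filter, 60 by edgeR without a filter, 26 by DESeq2, 1 with a pseudocount of 10, 0 with no filter, 1 with at least 10 reads in every library, 34 without those 4 libraries and 0 to 36 with single libraries left out. Over all genes, 21 were called by genotype, against 0 with no filter, 4 with a replicate block, 10 under total count scaling outside the loci related to ribosomal RNA, 14 by edgeR with a filter or with at least 10 reads in every library, 139 under total count scaling, 306 by DESeq2, 601 without those 4 libraries and 993 by edgeR without a filter. For *Tmod3*, the genotype difference turned to -0.0059 under total count scaling. The count of 5 genes without overlap became 0 under total count scaling and 9 without those 4 libraries, with no share of all genes given for either. The cause was not tested.

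For MI over both genotypes, 9 calls became 2 under a 2-fold change. In PKM2fl/fl hearts, 9 became 5 under a 2-fold change and 5 under total count scaling, which took the calls of all genes from 10299 to 6001. In PKM2-/- hearts, 8 became 2 under a 2-fold change. The interaction gave 1 call, *Snap91*, by edgeR without a filter and 0 to 1 with single libraries left out. For sham against baseline, 2 became 1 under a 2-fold change, total count scaling or at least 10 reads in every library, and 4 by DESeq2. The 1346 sham calls of all genes became 662 under total count scaling, 1158 with at least 10 reads in every library and 1877 by DESeq2. Counts of all genes under a 2-fold change are not given here, so nothing is read from those changes. Total count scaling changed the split of all MI calls from 6779 higher and 6738 lower to 5952 and 3766.

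Of 36 pairs of libraries with the same replicate number, 1 had a correlation over 0.1 between deviations from the group means. Pairs of different numbers were not compared, so whether the numbers pair the hearts was not tested. With the replicate number as a block, 1 of the 10 genes and 1 chromosome 9 gene were called by genotype. Over all genes, 4 were called with the block and 21 without it.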
